A study of Mus musculus with 9 samples.

Results

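The genes of the proteasome were followed across 9 clones of the mouse embryonic stem cell line E14. They were taken as the protein-coding genes whose symbol is Psma, Psmb, Psmc, Psmd, Psme, Psmf or Psmg followed by a digit, which gave 50 of 35580 genes. Of these, 48 had a mean of at least 1 CPM (counts scaled to an effective library size) and were analysed among 13378 genes at that level. Psmb9 and Psme2b stayed below it. Psmc3ip matches the symbols but encodes a cofactor of meiotic recombination and no part of the proteasome, so it is counted with the members and named where it bears on a value.

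The proteasome is the main protease of the cytosol and nucleus and degrades proteins tagged with ubiquitin. Its 20S core is a stack of rings of alpha subunits, which gate the entrance, and beta subunits, of which Psmb5, Psmb6 and Psmb7 carry the catalytic sites. A 19S cap binds the tagged protein, removes the tag and threads the chain into the core with a ring of ATPases. In cells exposed to interferon the catalytic subunits can be replaced by Psmb8, Psmb9 and Psmb10 (the immunoproteasome), and the PA28 cap, made of Psme1 and Psme2, can take the place of the 19S cap.

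Messenger RNA of clones 1, 4, 6, 8, 10, 11, 13, 14 and 17 was sequenced with a stranded kit, 1 library per clone, from cells grown on gelatin in serum with leukaemia inhibitory factor. The clones were isolated from the bulk line and picked for lipid droplet size, but which size belongs to which clone is not stated in the labels, so no groups could be formed and each clone stands alone. A difference between clones therefore has no replicate check. Libraries held 10783718 estimated counts in clone 1 to 14309662 in clone 6, and a count of 0 allowed up to 0.209 to 0.293 CPM (3 counts). The stem cell markers were high in every clone, with Pou5f1 at 851 to 1289 CPM and Sox2 at 236 to 301 CPM. The fibroblast markers (Col1a1, Col1a2, Lum, Dcn and Postn) summed to 42.4 CPM (clone 10) and 51.5 CPM (clone 11), and to between 1.02 and 8.69 CPM elsewhere. Almost all of that sum was collagen, with Lum at 0.0762 CPM or less, Postn at 0.489 CPM or less and Dcn at 0.629 CPM or less.

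Most proteasome genes varied little between clones, and the few that varied much had special roles or lay on chromosomes 8 and 11. The range of a gene, its highest minus its lowest clone on the log2 CPM scale, was 1 or more (at least a doubling) in 9 of 48 members (18.8%), against 35.3% of all genes tested. The median range of the members was 0.52, against 0.78 for all genes. Members and all genes were not matched for level, and the part of level in this difference was not tested. The 9 members with a range of 1 or more were Psmb8 (5.35), Psmb11 (1.92), Psme2 (1.74), Psmd7 (1.66), Psmb10 (1.42), Psma8 (1.24), Psme1 (1.17), Psmc3ip (1.09) and Psmb6 (1.09). Psmb8 and Psmb11, the widest, had means of only 2.23 and 2.05 CPM. Just under the limit of 1 were Psmc5 (0.94) and Psmb3 (0.93). Small as most ranges were, 47 of 48 members differed between libraries beyond counting noise (a chi-square test of the counts against Poisson error, with Benjamini-Hochberg adjusted p over all genes tested, 0.05), against 89.4% of all genes. The exception was Psmg4, an assembly chaperone at 9.06 to 12.6 CPM.

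**Figure D1:**
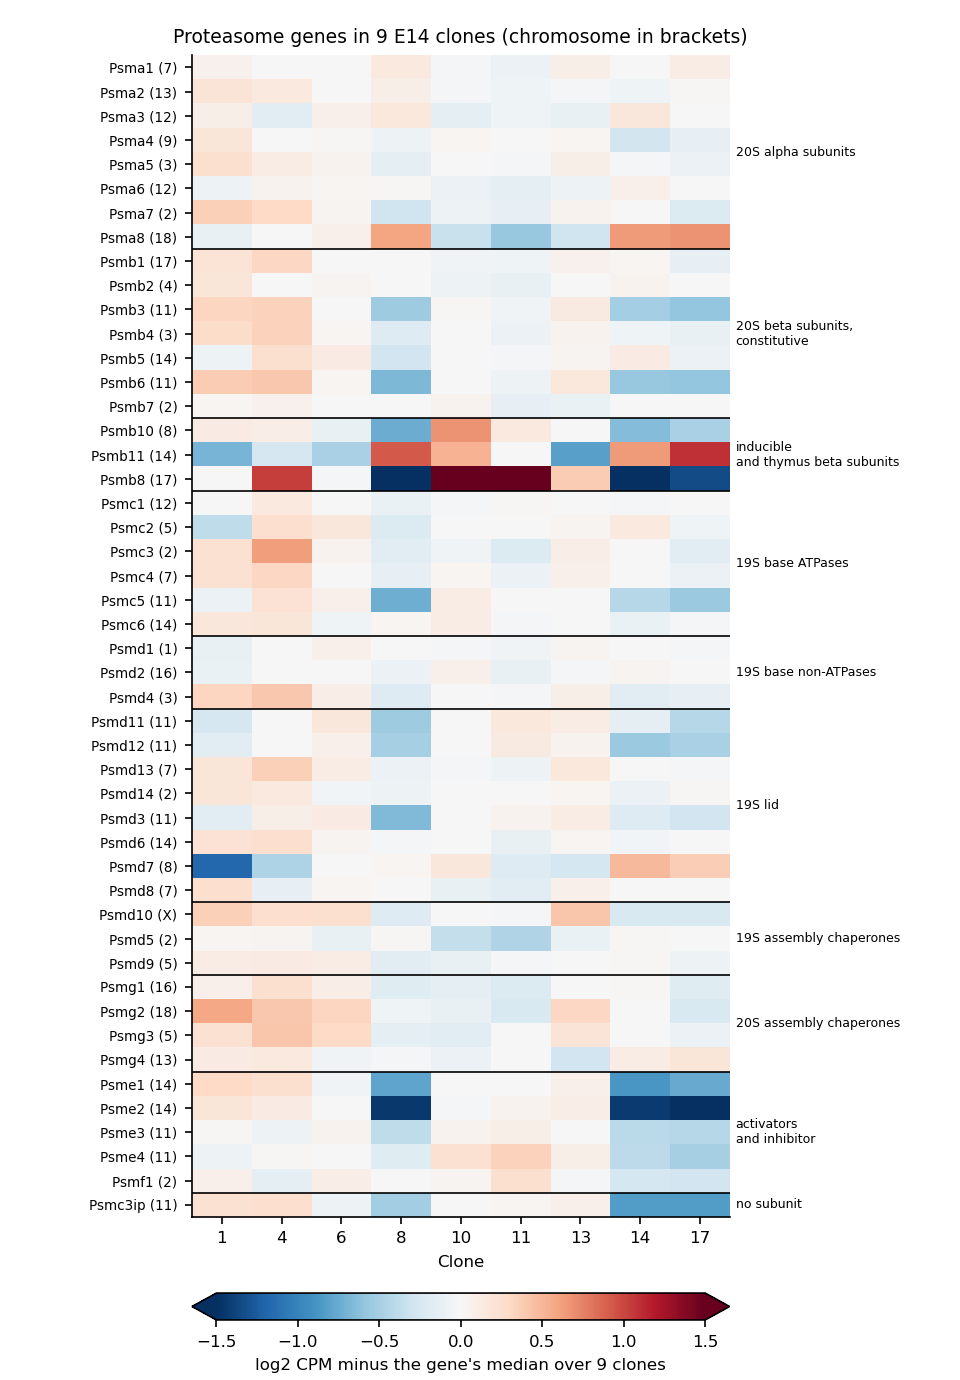
Each row is 1 of the 48 analysed members, grouped by role, and each column 1 clone. Colour gives log2 CPM minus the gene's median over the 9 clones, on a scale that ends at 1.5 in both directions. Pale rows fill most of the core and cap, the chromosome 11 rows are blue in clones 8, 14 and 17, and the strongest colours are in Psmb8 and Psme2.

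The heat map by role and clone shows the constitutive core and cap as its quiet part. The 31 subunits of the 20S core and the 19S cap that are made in all tissues had a median range of 0.44. The 24 of them outside chromosomes 8 and 11 had a median range of 0.38 and none reached 1 (highest 0.83). For comparison, the 7 analysed genes of the CCT chaperonin, another complex of fixed make-up, had a median range of 0.41, led by Cct4 (0.64) and Cct5 (0.58). The 10 genes of the COP9 signalosome, which is related to the 19S lid, had a median range of 0.48, led by Gps1 (0.97) and Cops9 (0.78).

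By CPM, the 3 steadiest members were Psmd2, Psmb7 and Psmd1. This order depends on the unit: on the log2(TPM + 1) scale Psmd2 had a range of 0.33 and Psmd1 of 0.30, both above that of Psmb2 (0.17). Psmd2, the scaffold of the 19S base that holds ubiquitin receptors, was highest at 557 CPM in clone 10, had a median of 530.0 CPM and was lowest at 492 CPM in clone 11, a 1.13-fold difference (exact 95% interval 1.09 to 1.17; intervals of folds here cover counting error only). Psmb7, the subunit with trypsin-like activity, stood at 253 CPM in clone 4, a median of 242 CPM, and 222 CPM in clone 11. Psmd1, the other large scaffold of the base, stood at 406 CPM in clone 6, a median of 384 CPM, and 355 CPM in clone 1.

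Among the alpha subunits, which form the outer rings, the 7 constitutive genes had ranges of 0.22 to 0.65. The widest was Psma7, at 231 CPM in clone 1, a median of 181 CPM, and 147 CPM in clone 8. Psma3 needs caution, because only 40.1% of its estimated counts were in protein-coding transcripts and its pseudogene copy Gm13835 held 14.3% as many counts as Psma3. Taken over protein-coding transcripts, clone 8 had 83.2 CPM of Psma3 and clone 4 had 24.6 CPM. Gm13835 had 25.0 CPM in clone 8, against 46.3 CPM in clone 4. The range of Psma3 was 1.75 on protein-coding transcripts, 0.34 over all transcripts and 0.32 with near-identical copies added.

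Of the catalytic beta subunits outside chromosome 11, Psmb5, which has chymotrypsin-like activity, stood at 148 CPM in clone 4, a median of 125 CPM, and 103 CPM in clone 8. The highest clone was 1.43-fold above the lowest (interval 1.34 to 1.53). Without clone 8 its range was 0.34 in place of 0.52. Its pseudogene copy Gm3375 held 19.1% as many counts as Psmb5, at 20.6 to 29.5 CPM, and with copies added the range was 0.50.

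Clone 4 gave the highest level of the 3 widest-ranging 19S base subunits outside chromosome 11. Psmc3, an ATPase, reached 486 CPM in clone 4, had a median of 315 CPM and was lowest at 274 CPM in clone 11, 1.77-fold apart (interval 1.71 to 1.85), and without clone 4 its range was 0.43 in place of 0.83. Psmc2, another ATPase, reached 201 CPM in clone 4, had a median of 169 CPM and was lowest at 129.6 CPM in clone 1 (1.55-fold, interval 1.45 to 1.66). Psmd4, the ubiquitin receptor of the base, stood at 289 CPM in clone 4, a median of 218 CPM, and 190.2 CPM in clone 8 (1.52-fold, interval 1.45 to 1.60).

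The assembly chaperones, which help to build the core and the cap and leave the finished particle, had ranges of 0.28 to 0.81. Psmg2, which pairs with Psmg1 to assemble the alpha ring, was highest at 47.5 CPM in clone 1, had a median of 31.6 CPM and was lowest at 27 CPM in clone 11 (1.76-fold, interval 1.54 to 2.02). Psmd10 (gankyrin), on chromosome X, binds an ATPase of the base during assembly. It stood at 12.6 CPM in clone 13, a median of 9.42 CPM, and 8.01 CPM in clone 17 (1.57-fold, interval 1.23 to 2.01). Pomp, a chaperone of the beta ring whose symbol does not match, was steadier by CPM than any member, with a range of 0.16.

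Clone 4 was the highest of the 9 clones for 20 of 48 members (41.7%), against 15.2% of all genes. In that clone 20 members stood 0.2 or more above their median (log2 CPM), against 22.5% of all genes, and in clone 1 this held for 15 members, against 23.6% of all genes. These counts depend on the unit. On the log2(TPM + 1) scale they were 9 in clone 4 and 3 in clone 1, beside 16.9% and 14.5% of all genes, and the median deviation of members outside chromosomes 8 and 11 was 0.18 in clone 1 by CPM and 0.0041 by TPM. All genes tested had a median deviation in clone 1 of 0 by CPM and of -0.046 by TPM, so less that median the members stood at 0.050 by TPM. TPM, the authors' deposited abundance value, takes transcript length into account.

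Levels per length, in TPM, gave the order of the subunits. Psmb6 ranked first of the 31 constitutive subunits in all 9 clones, at 905 TPM in clone 4, a median of 760.1 TPM, and 463 TPM in clone 8. Psmb3 (319 to 572 TPM) and Psmb4 (357 to 539.6 TPM), both structural beta subunits, took the next 2 ranks in every clone. From rank 4 down the subunits overlapped over clones: Psmc5 had a median of 363 TPM (218 to 398 TPM) and Psmc3 of 296 TPM (263 to 426 TPM). At the lower end stood Psmc2 (99.0 to 158 TPM), Psma2 (143 to 163 TPM) and Psmd6 (145 to 172 TPM). The median over the 14 constitutive core subunits was 243 to 263 TPM, above that of the 17 cap subunits in every clone (179 to 206 TPM). The highest subunit was 11.3 times the lowest in clone 1 and 3.36 times the lowest in clone 14.

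**Figure D2:**
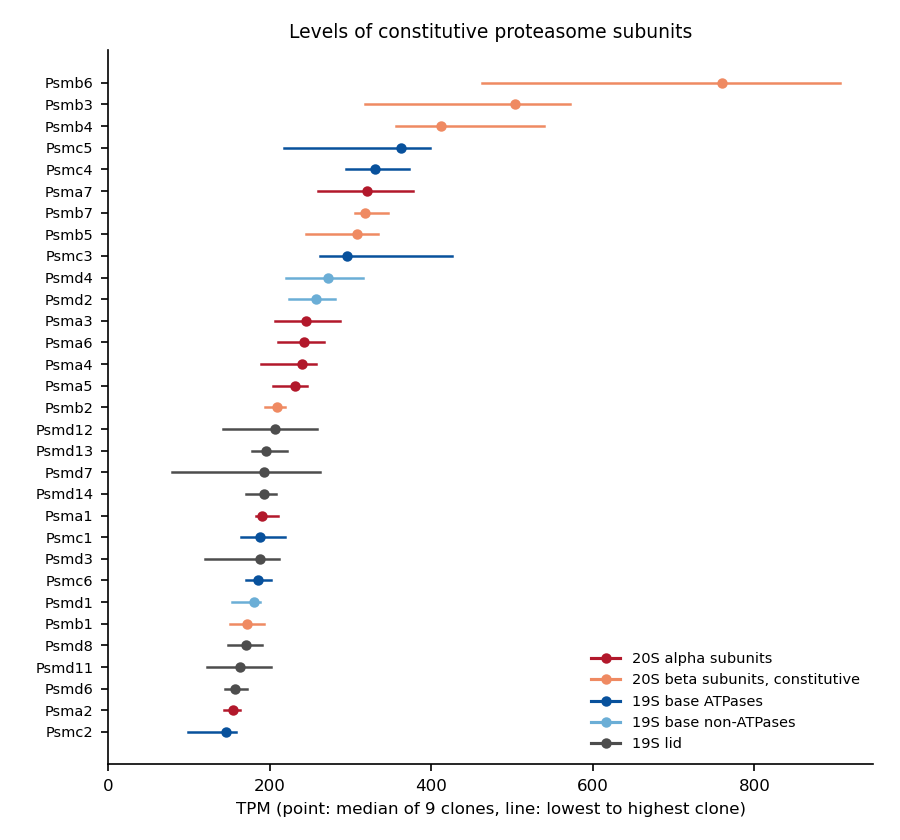
The horizontal axis gives TPM and each line is 1 constitutive subunit of the 20S core or 19S cap, with the median of the 9 clones as a point and the lowest to highest clone as a line. The median of Psmb6 lies apart at the top (760.1 TPM), although its line from 463 to 905 TPM overlaps those of Psmb3 and Psmb4, and Psmd7 has the longest line among the lid subunits.

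Several of the long lines in the plot of levels per length belong to genes of chromosome 11. That chromosome holds 10 members, of which 9 were analysed: the beta subunits Psmb3 and Psmb6, the ATPase Psmc5, the lid subunits Psmd3, Psmd11 and Psmd12, the activators Psme3 and Psme4, and Psmc3ip. The proximal promoters of Psmb6 and Psmb3 are shown because these beta subunits took rank 1 and ranks 2 to 3 in level per length and are the 2 core subunits on chromosome 11. They are RefSeq sequences (GRCm38.p6) of 250 bases before to 50 after the gene start, at chr11:70525107-70525406 (plus strand) for Psmb6 and chr11:97703184-97703483 (plus strand) for Psmb3. Capitals mark the matches to TGACNNNGC (the antioxidant response element core) in Psmb6, and to CCAAT and to a pair of GAAA runs 2 bases apart (the core of the interferon-stimulated response element, here on the opposite strand) in Psmb3.
Psmb6: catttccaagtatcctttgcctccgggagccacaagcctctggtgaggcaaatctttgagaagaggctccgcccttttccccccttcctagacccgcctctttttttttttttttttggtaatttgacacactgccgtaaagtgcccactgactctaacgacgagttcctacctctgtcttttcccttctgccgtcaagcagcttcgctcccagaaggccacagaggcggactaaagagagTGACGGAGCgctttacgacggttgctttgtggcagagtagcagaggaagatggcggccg
Psmb3: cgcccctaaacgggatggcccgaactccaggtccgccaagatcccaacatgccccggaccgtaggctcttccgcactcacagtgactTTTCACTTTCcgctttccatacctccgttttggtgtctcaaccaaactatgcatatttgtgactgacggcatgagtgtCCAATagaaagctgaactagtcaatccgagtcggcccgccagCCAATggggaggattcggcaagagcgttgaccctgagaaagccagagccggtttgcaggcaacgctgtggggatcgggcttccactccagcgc

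All 9 chromosome 11 members were lower in clones 8, 14 and 17 than their median over clones. Their median deviation (log2 CPM minus the gene's median over clones) was -0.53 in clone 8, -0.43 in clone 14 and -0.50 in clone 17, and between -0.08 and 0.08 in the other 6 clones. All 1073 tested genes of chromosome 11 showed a like offset, with medians of -0.40, -0.36 and -0.39 in clones 8, 14 and 17 and 0.02 to 0.12 in the others. The 37 members outside chromosomes 8 and 11 had medians of -0.08 in clone 8, 0.00 in clone 14 and -0.07 in clone 17. A deviation of 0.2 or more below the median was found in 8 of the 9 chromosome 11 members in clone 8, against 26.5% of all genes, in 7 in clone 14, against 22.8%, and in all 9 in clone 17, against 24.4%. Among all tested genes of chromosome 11 the shares were much higher, at 71.6% in clone 8 and 69.9% in clones 14 and 17. Without Psmc3ip the medians were -0.53, -0.42 and -0.49 in these clones. In bulk RNA, fewer cells with a gene active and less RNA per cell cannot be told apart.

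**Figure D3:**
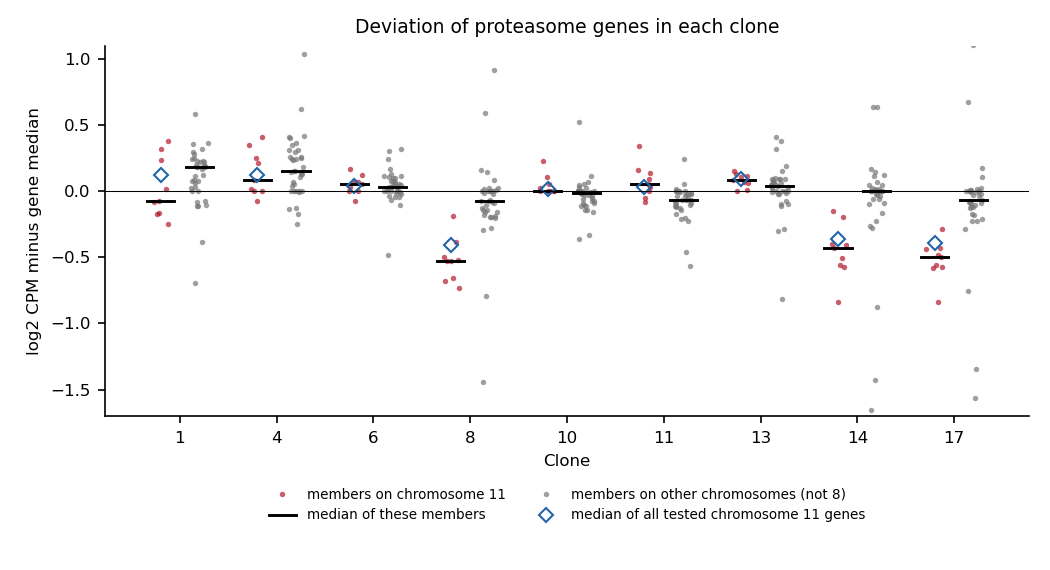
The vertical axis gives log2 CPM minus the gene's median over clones, and the horizontal axis the clone. Red points are the 9 members on chromosome 11, grey points the 37 members outside chromosomes 8 and 11, bars their medians and open diamonds the median of all tested genes of chromosome 11; 4 grey points lie beyond the axis. Red points, bars and diamonds lie below 0 in clones 8, 14 and 17, where the grey bars stay near 0.

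Psmb6, the subunit with caspase-like activity, at chr11:70525367-70527858, had 452, 461, 355, 347, 328 and 386 CPM in clones 1, 4, 6, 10, 11 and 13. Clones 8, 14 and 17 had 217, 233 and 232 CPM, below all the others, and the highest clone was 2.12-fold above the lowest (interval 2.03 to 2.22). The 17 tested genes within 250 kb of Psmb6 had median deviations of -0.46, -0.25 and -0.30 in these 3 clones. Psmb3, at chr11:97703399-97713500, had 277, 282, 222, 225, 214 and 243 CPM in clones 1, 4, 6, 10, 11 and 13. It had 154, 156 and 149 CPM in clones 8, 14 and 17, and the highest clone was 1.90-fold above the lowest (interval 1.8 to 2.01). Both beta subunits thus had their 3 lowest levels in the same 3 clones.

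Psmc5, an ATPase of the 19S base at chr11:106256154-106263120, was at 357 CPM in clone 4, a median of 308 CPM, and 186 CPM in clone 8, 1.92-fold apart (interval 1.83 to 2.02). Its levels in clones 14 and 17, 228 and 209 CPM, were also below those of the other 6 clones (291 to 357 CPM). The lid subunit Psmd12, at chr11:107479484-107504362, stood at 279 CPM in clone 11, a median of 254 CPM, and 173 CPM in clone 14, with 180.0 CPM in clone 8 and 182 CPM in clone 17. These 3 clones were again the lowest, next to 225 CPM in clone 1.

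The other lid genes separated the clones less. Psmd3, at chr11:98682554-98695979, was at 298 CPM in clone 6, a median of 274 CPM, and 173 CPM in clone 8, and its levels in clones 14 and 17 (239.5 and 224 CPM) lay beside that of clone 1 (244 CPM). Without clone 8 its range was 0.42 in place of 0.78. Psmd11, at chr11:80428615-80473248, was at 227 CPM in clone 6, a median of 202 CPM, and 139.7 CPM in clone 8, and clone 14 (182 CPM) was above clone 1 (169 CPM).

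Psme3 and Psme4 are activators of the core. Psme3, which forms the PA28 gamma cap of the nucleus, at chr11:101316213-101323537, was at 232 CPM in clone 11, a median of 218 CPM, and 161 CPM in clone 17, with 167 and 164 CPM in clones 8 and 14. Psme4 (PA200), a large nuclear activator at chr11:30771726-30880361, was at 625 CPM in clone 11, a median of 493 CPM, and 349 CPM in clone 17 (1.79-fold, interval 1.73 to 1.85). Clone 8, with 434 CPM, was the third lowest. Psmc3ip, at chr11:101091823-101095436, was at 26.5 CPM in clone 4, a median of 22.2 CPM, and 12.4 CPM in clone 17. It overlaps Mlx on the other strand over 385 identical bases, and Mlx held 226% as many counts, so its level is uncertain where the strand was not used in counting. Psme2b, at chr11:48945354-48946190, had 2.55 estimated counts (0.182 CPM) in clone 8 and 0 in the other clones. This is below the level of 3 counts, so clone 8 cannot be told apart from the others. Psme2b is 99.4% identical to Psme2 over 794 bases.

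When the median deviation of the other tested genes of the chromosome was subtracted in each clone, the range shrank for all 9 of these members, from a median of 0.84 to 0.46, and none kept a range of 1. The members outside chromosomes 8 and 11 had a median range of 0.45 both before and after. After subtraction the median of the 9 members was -0.20 in clone 1 and -0.13, -0.07 and -0.11 in clones 8, 14 and 17. Psmc3ip kept the widest range, 0.60. Psmd11 kept 0.58, with its lowest value of -0.37 in clone 1 and its highest of 0.21 in clone 14. Psmb6 kept 0.56, with its lowest value of -0.27 in clone 8 and its highest of 0.29 in clone 4, and Psmb3 kept 0.41. Psme3 kept the least, 0.25.

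No member lies on chromosome 6, so its distal part (from 110 Mb, with 231 tested genes) holds none. Chromosome 8 holds 2 members, and in clones 8, 14 and 17 they stood on opposite sides of their medians. All 716 tested chromosome 8 genes had median deviations of 0.28, 0.26, 0.32 and 0.32 in clones 8, 10, 14 and 17, and of -0.21 to -0.01 in the other 5.

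Psmd7, the lid partner of the deubiquitinating subunit Psmd14, at chr8:107580381-107588464, was highest at 284 CPM in clone 14, had a median of 203 CPM and was lowest at 89.8 CPM in clone 1. This is a span of 3.16-fold (interval 2.94 to 3.40), and no other constitutive subunit spanned as much. The other clones held 147 (clone 4), 203 (clone 6), 207 (clone 8), 228 (clone 10), 178 (clone 11), 169 (clone 13) and 262 CPM (clone 17). Clone 1 decided the size: without it the range was 0.93 in place of 1.66. Less the other genes of the chromosome, the range was 1.16 and clone 1 stood at -1.0. Within 250 kb of Psmd7 lie 5 other tested genes, with a median deviation of -0.48 in clone 1. There Rps26-ps1, a pseudogene with a mean of 1.77 CPM, stood at -1.12. Nob1 stood at -0.58, Nfat5 at -0.48, Wwp2 at -0.21 and Nqo1 at 0.13. Psmd14 itself, on chromosome 2, was highest in clone 1, at 213 CPM, with a median of 187 CPM.

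Psmb10, the inducible partner of Psmb7, at chr8:105935735-105938444, was highest at 64.2 CPM in clone 10, had a median of 40.1 CPM and was lowest at 23.8 CPM in clone 8 (2.69-fold, interval 2.37 to 3.07). Clones 14 and 17 had the next lowest levels, 25.4 and 28.5 CPM, while the 18 tested genes within 250 kb had median deviations of 0.24, 0.32 and 0.28 in clones 8, 14 and 17. Less the other genes of the chromosome its range was 1.44, and without clone 10 it was 0.89 in place of 1.42. Only 23.8% of its counts were in protein-coding transcripts. In those the differences were larger, with 23.7 and 17.7 CPM in clones 10 and 11, 6.82 to 10.8 CPM in clones 1, 4, 6 and 13, and 2.20, 1.89 and 2.71 CPM in clones 8, 14 and 17. The highest was 12.6-fold above the lowest (interval 8.37 to 19.4).

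The inducible subunits and the PA28 cap held some of the widest differences between clones. Psmb8, the inducible partner of Psmb5, at chr17:34197721-34201454, had 8.87 CPM in clone 11 and next 6.45 CPM in clone 10. Clones 1, 4, 6 and 13 had 0.78, 1.75, 0.767 and 1.06 CPM, and clones 8, 14 and 17 had 0.0714, 0.146 and 0.217 CPM. Clones 10 and 11 stood above all the others, and clones 8, 14 and 17 held 1 to 3 counts each. Clone 11, with 127 counts, was 124-fold above clone 8, with 1 count, and the interval of 21.9 to 4949 is wide for that reason. The range was 3.78 on the log2(TPM + 1) scale and 6.36 with a prior count of 0.5, in place of 5.35.

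Psmb9, the inducible partner of Psmb6, at chr17:34181987-34187764, was below the level filter, at 1.89 CPM in clone 11, a median of 0.928 CPM, and 0.216 CPM in clone 17. It overlaps Tap1 on the other strand, and Tap1 held 495% as many counts, so its level is uncertain. Per length, Psmb8 made up 4.02% of the sum of Psmb8 and Psmb5 TPM in clone 11, 2.90% in clone 10, and 0.744% or less in the other 7 clones, down to 0.027% in clone 8. Psmb9 made up 0.137 to 0.344% of the sum of Psmb9 and Psmb6. Over all transcripts Psmb10 made up 34.5% of the sum of Psmb10 and Psmb7 in clone 10, 28.0% in clone 11, 26.5 to 29.3% in clones 1, 4, 6 and 13 and 21.3 to 23.0% in clones 8, 14 and 17. In the protein-coding transcripts of this pair, Psmb10 made up 7.61% in clone 10, 6.51% in clone 11, 2.41 to 3.61% in clones 1, 4, 6 and 13 and 0.68 to 0.97% in clones 8, 14 and 17. The constitutive subunit made up most of each pair in all 9 clones. The collagen-rich fibroblast marker sum was also highest in clones 10 and 11, and its part in these levels was not tested.

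**Figure D4:**
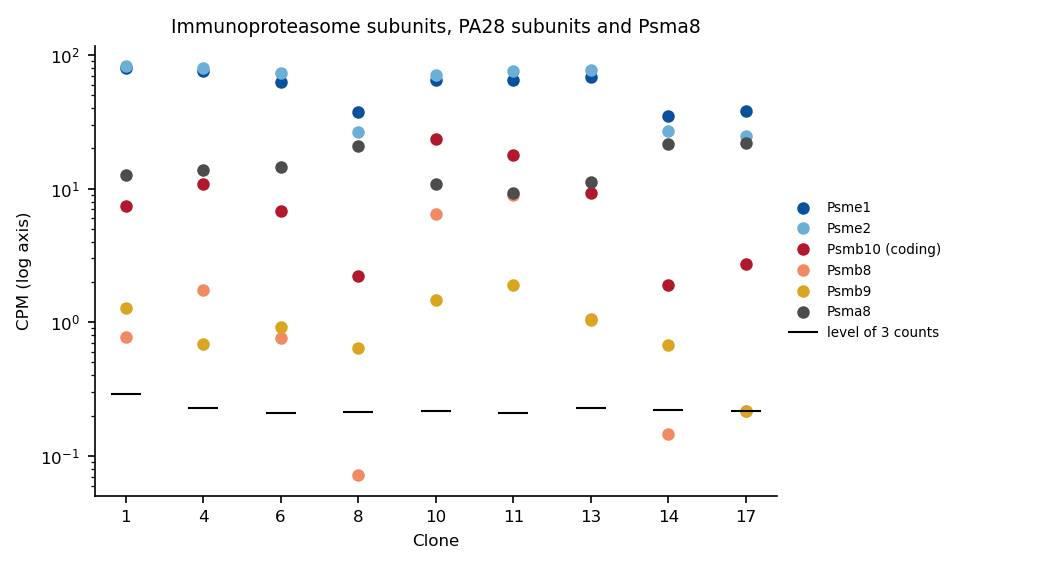
The vertical axis gives CPM on a log scale and the horizontal axis the clone, with 1 point per gene and clone and a short bar for the level of 3 counts. Psmb10 is shown for its protein-coding transcripts, and in clone 11 the point of Psmb8 lies partly under that of Psma8. Psmb8 and Psmb10 are highest in clones 10 and 11, Psme1 and Psme2 are lowest in clones 8, 14 and 17, and Psma8 is highest in those 3 clones.

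Psme1 and Psme2, the alpha and beta subunits of the PA28 cap, lie close together on chromosome 14 and were both lowest in clones 8, 14 and 17. Psme1, at chr14:55578123-55581529, had 79.2, 76.2, 62.3, 64.4, 64.6 and 68.1 CPM in clones 1, 4, 6, 10, 11 and 13, against 37.2, 35.0 and 38.2 CPM in clones 8, 14 and 17. Psme2, at chr14:55587441-55591113, had 82.5, 79.5, 72.8, 71.0, 75.6 and 77.7 CPM in clones 1, 4, 6, 10, 11 and 13, against 26.7, 26.9 and 24.6 CPM in clones 8, 14 and 17. For both genes these last 3 levels lay below all the others. The highest clone was 2.26-fold above the lowest for Psme1 (interval 2.02 to 2.54) and 3.36-fold for Psme2 (interval 2.96 to 3.82).

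Most genes around them did not show this step. Psme1 deviated by -0.79, -0.88 and -0.75 in clones 8, 14 and 17 and Psme2 by -1.44, -1.43 and -1.56, whereas the 21 other tested genes within 250 kb of Psme1 had medians of -0.07, 0.00 and 0.00 there. Emc9, which lies between the 2 genes, deviated by -0.35, -0.28 and -0.11. Rec8, 39.9 kb from the start of Psme1, was also lower in all 3 clones, at -0.74, -0.45 and -0.77. Irf9, a component of the interferon response 25.4 kb away, deviated by 0.45, 0.28 and -0.10.

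**Figure D5:**
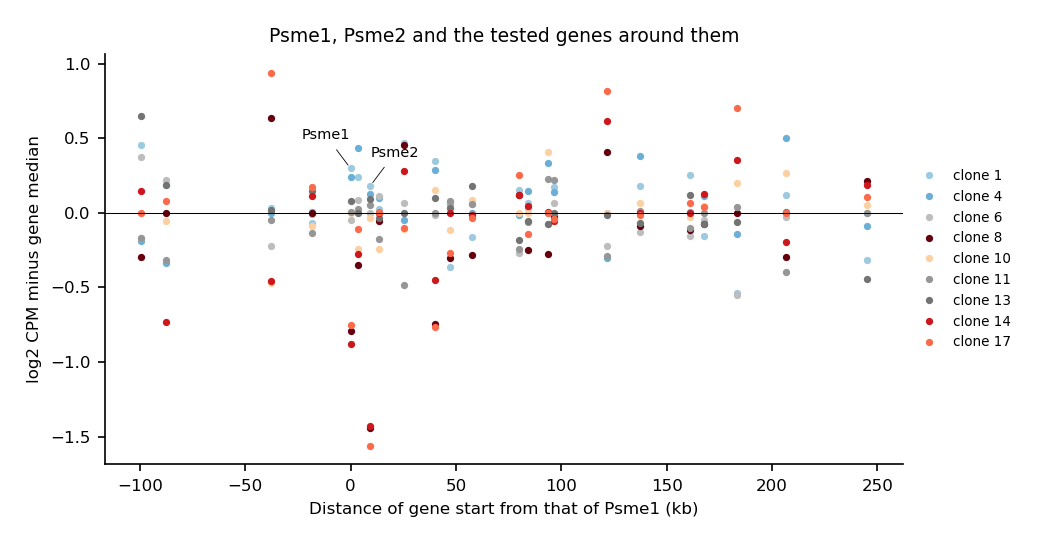
The horizontal axis gives the distance of a gene's start from that of Psme1 in kb and the vertical axis log2 CPM minus the gene's median over clones, with 1 point per clone (colours in the legend). Psme1 and Psme2 are labelled, and their points for clones 8, 14 and 17 lie at -0.75 or below, apart from those of most neighbours.

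The promoters of Psme1, Psme2, Psmb8 and Psmb10 are shown because interferon is known to induce these genes and each had a range above 1. They are RefSeq sequences (GRCm38.p6) at chr14:55578244-55578543 (plus strand) for Psme1, chr14:55590972-55591271 (minus strand) for Psme2, the first of 2 listed starts, chr17:34197945-34198244 (plus strand) for Psmb8 and chr8:105938343-105938642 (minus strand) for Psmb10. The RefSeq starts used here differ from the outermost gene starts given above, so the windows of Psme1 and Psmb8 lie inside those gene intervals. Capitals mark a pair of GAAA runs 2 bases apart, on the opposite strand, in Psme1, and a match to TTCNNNGAA, the core bound by STAT factors, in Psmb8. The Psme2 and Psmb10 windows hold none of the 4 motifs searched.
Psme1: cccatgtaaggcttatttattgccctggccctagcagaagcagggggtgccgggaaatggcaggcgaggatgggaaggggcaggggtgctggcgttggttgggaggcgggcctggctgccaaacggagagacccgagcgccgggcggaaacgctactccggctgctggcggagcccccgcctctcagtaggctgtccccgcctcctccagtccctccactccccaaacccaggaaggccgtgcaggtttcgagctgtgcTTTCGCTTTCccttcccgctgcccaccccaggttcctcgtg
Psme2: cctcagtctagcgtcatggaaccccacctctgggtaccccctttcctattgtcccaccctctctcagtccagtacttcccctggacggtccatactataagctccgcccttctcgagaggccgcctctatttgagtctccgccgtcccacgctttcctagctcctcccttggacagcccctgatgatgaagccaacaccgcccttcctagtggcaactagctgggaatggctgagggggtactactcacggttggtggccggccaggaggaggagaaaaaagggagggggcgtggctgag
Psmb8: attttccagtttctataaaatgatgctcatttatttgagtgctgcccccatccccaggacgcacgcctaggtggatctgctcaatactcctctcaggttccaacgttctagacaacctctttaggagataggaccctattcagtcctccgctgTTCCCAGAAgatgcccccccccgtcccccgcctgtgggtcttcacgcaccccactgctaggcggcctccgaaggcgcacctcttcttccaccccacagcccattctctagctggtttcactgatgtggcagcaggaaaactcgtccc
Psmb10: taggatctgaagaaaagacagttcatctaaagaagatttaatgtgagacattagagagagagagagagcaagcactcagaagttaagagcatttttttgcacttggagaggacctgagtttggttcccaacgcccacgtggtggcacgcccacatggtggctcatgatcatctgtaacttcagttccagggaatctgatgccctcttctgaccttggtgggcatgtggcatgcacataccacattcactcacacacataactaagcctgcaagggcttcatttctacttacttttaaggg

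Across the members, motif matches were about as common as in all promoters for 3 of 4 motifs. An entry was found for 42 of 50 members, with 45 windows of 300 bases, and all 32851 RefSeq promoters of that length were searched alike. TGACNNNGC, searched for because NFE2L1 and NFE2L2 bind such sites, was in 13.3% of the members' windows (Psmb5, Psmb6, Psmc6, Psmd9, Psmd12 and Psme4), against 12.4% of all. CCAAT, the site of the NF-Y factor, was in 33.3%, against 37.4% of all. TTCNNNGAA was in 6.67% (Psmb8, Psmd2 and Psmg1), against 8.30% of all, and the pair of GAAA runs in 11.1% (Psmb3, Psmd4, Psmd9, Psme1 and Psmg4), against 3.44% of all. Both strands of each motif were counted, overlaps between motifs were not resolved, and a match describes the letters and is no measured site.

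Genes listed for antigen processing and interferon, some of which hand the peptides made by the proteasome to MHC class I molecules, had wide ranges. A range of 1 or more was found in 9 of 12 such genes, against 35.3% of all genes tested, and their median range was 1.68. The list was chosen with earlier results of these data known and was not matched for level, so these values only describe the listed genes. Tap2, part of the peptide transporter, had 5.61 and 3.77 CPM in clones 11 and 10 and its lowest level, 0.357 CPM, in clone 8 (15.7-fold, interval 6.44 to 49.5). Erap1, which trims the peptides, had 20.2 and 13.9 CPM in clones 11 and 10, against 3.48, 2.27 and 1.71 CPM in clones 8, 14 and 17 (11.8-fold from highest to lowest, interval 7.71 to 18.6). As with Psmb8, clones 10 and 11 were the highest and clones 8, 14 and 17 the lowest for both genes. Tap2 starts 5.8 kb from Psmb8 and is 1 of 15 other tested genes within 250 kb of it. Of these 15, 7 had a range of 1 or more, against 35.3% of all genes tested. Their median deviations were 0 in clones 10 and 11 and -0.33, -0.05 and -0.19 in clones 8, 14 and 17. Irf1, an interferon-responsive transcription factor named here after its values were seen, had 18.7, 22.2 and 15.9 CPM in clones 8, 14 and 17. Elsewhere it had 63.3 to 81.6 CPM, so its 3 lowest clones were those of Psme1 and Psme2. Irf1 lies on chromosome 11, whose tested genes had median deviations of -0.40, -0.36 and -0.39 in these clones. A link between Irf1 and Psme1 or Psme2 was not tested.

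Psma8 and Psmb11 are members with a tissue-restricted role. Psma8 is the germ cell relative of Psma7, and it was highest where Psme1 was lowest, with 20.8, 21.4 and 22.0 CPM in clones 8, 14 and 17, against 9.22 to 14.4 CPM elsewhere. The highest clone was 2.38-fold above the lowest (interval 1.94 to 2.95), and Psma7 remained at 147 CPM or more in every clone. Psmb11, the beta subunit of the thymus cortex, had few counts, at 3.79 CPM in clone 17, a median of 1.69 CPM, and 0.896 CPM in clone 13 (4.24-fold, interval 2.22 to 8.64). On the log2(TPM + 1) scale its range was 0.78 in place of 1.92. Psmf1 (PI31), a regulator of the core, stood at 35.0 CPM in clone 11, a median of 29.6 CPM, and 24.2 CPM in clone 17.

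Of 10 analysed proteasome genes with symbols outside the rule, 1 had a range of 1 or more, against 35.3% of all genes tested, and their median range was 0.45; Paaf1 was not analysed here. Ecpas, which tethers proteasomes to other structures, had 78.2 and 60.7 CPM in clones 11 and 10 and its lowest level, 27.5 CPM, in clone 8, and spanned 2.84-fold (interval 2.53 to 3.19). Usp14, a deubiquitinase of the cap, had 124 CPM in clone 17, against 71.0 CPM in clone 1 (1.74-fold, interval 1.59 to 1.90). In clone 1 it thus shared the low end with Psmd7 and Psmc2.

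The transcription factors known to drive proteasome genes did not move as 1 group. Nfe2l1, whose product raises proteasome gene expression when the proteasome is inhibited, lies on chromosome 11. It had 324 CPM in clone 6, its highest, and 188, 209 and 218 CPM in clones 8, 14 and 17, its 3 lowest. Nfe2l2, the regulator of the oxidative stress response, had 80.4, 66.6 and 81.3 CPM in clones 8, 14 and 17, against 44.5 to 56.3 CPM elsewhere. Of 12 analysed regulators, 2 had a range of 1 or more, against 35.3% of all genes tested: Nfya, with 18.1 CPM in clone 14, against 7.29 CPM in clone 1 (2.49-fold, interval 1.90 to 3.25), and Mafk, with 15 CPM in clone 10, against 6.99 CPM in clone 8 (2.14-fold, interval 1.68 to 2.75). Ddi1 was below the level filter.

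The 14 analysed genes for ubiquitin, its shuttle factors and the segregase that feeds the proteasome had a median range of 0.54, against 0.52 for the members.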

How the data were processed

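The 9 E14 clones entered as single samples without groups. Per the submitters' processing notes, CASAVA 1.8, FastQC, Trimmomatic 0.33 and kallisto 0.43.1 were used, with builds mm10 and GRCm38; the annotation release, and whether counting used the strand of the stranded kit, are not given in the sources used here. Per the file headers, the deposited tables hold an estimated count and a TPM value for each of 115270 transcripts, both made by the authors. kallisto divides reads between similar transcripts, so values of genes with near-identical copies are uncertain.

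Transcripts were matched to GENCODE M21 (98.53%; the rest held 0.641 to 0.773% of the counts) and summed to 35580 genes. CPM used TMM factors (checked against edgeR 4.0.16), a mean of at least 1 CPM and, for log2, a prior count of 2. A deviation is log2 CPM minus the gene's median over clones, and the distal part of chromosome 6 began at 110 Mb. The chi-square test compares libraries, not conditions. It was tried on counts simulated with Poisson error, which is the error it assumes. That trial therefore cannot show how the test behaves on counts that kallisto divides between similar transcripts. Fold intervals are exact conditional binomial intervals at 95%. Copies were matches of at least 200 bases at 95% identity (blastn 2.17.0). Promoter windows are from RefSeq. Genes named were all members on chromosomes 8 and 11, the catalytic subunits, those with a range of 1 or more, the widest of each role, the 3 steadiest, Psme1, Psme2, Nfe2l1, Nfe2l2 and the 2 widest of each other list; further genes were chosen after their values were seen. The widest of the ubiquitin list are not reported here. The members, lists, the GAAA-pair and TTCNNNGAA motifs and the 250 kb windows were chosen with earlier results of these data known. Values were recomputed with each clone left out, with log2(TPM + 1), with protein-coding transcripts only, with a prior count of 0.5, with no filter, with a filter at 5 CPM, with median-ratio size factors and with the gene mean as reference; leaving out Psmc3ip and adding copies were chosen after seeing the data. The software was scipy 1.17.1, numpy 2.4.6, pandas 2.3.3 and matplotlib 3.10.9 under Python 3.11.15.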

Additional observations from a re-analysis of the deposited data

Results flagged for a closer look

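Psmc1, an ATPase of the 19S base, had 1 clone far from the others by CPM. Clone 4, at 208 CPM, stood above the next clone (190.1 CPM in clone 11) by a gap of 0.513 of the gene's whole log2 range. The lowest was 175 CPM in clone 8. Psmc1 was the only 1 of 48 members with such a gap at either end. Chance flags about 1 in 20 groups, so a single flag among the members is not unusual. The whole range was 0.25, or 0.12 without clone 4, and clone 4 was also the highest clone for 20 of the 48 members. By TPM clone 4 was not the highest: it had 214 TPM, against 219 TPM in clone 13. On the log2(TPM + 1) scale the range was 0.40.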

How the results depend on the processing

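Of 459 recomputed counts and medians, 452 stayed within the spread between clones or within 1.5 times the count, and none of those called changed sign. That spread, the standard deviation over clones, is larger where the clones differ more. A median or a member's range with wide differences could thus shift much and still count as unmoved. On the log2(TPM + 1) scale the median deviation of members outside chromosomes 8 and 11 was 0.0041 in clone 1 (0.18 by CPM) and 0.035 in clone 11 (-0.06 by CPM). On that scale all genes tested had medians of -0.046 in clone 1 and 0.058 in clone 11, against 0 in both by CPM. Less these medians, the members stood at 0.050 in clone 1 and -0.023 in clone 11. With protein-coding transcripts only, the median of the 2 chromosome 8 members was -0.80, 0.93, 0.55, -0.70 and -0.50 in clones 8, 10, 11, 14 and 17, against -0.36, 0.42, -0.02, -0.08 and -0.06 over all transcripts. That alternative keeps 23.8% of the counts of Psmb10. Members with a range of 1 or more numbered 7 to 11 over the alternatives other than leaving out clones and 8 to 10 with 1 clone left out. For the chromosome 11 members, leaving out 1 of the other clones gave medians of -0.54 to -0.49 in clone 8, -0.47 to -0.39 in clone 14 and -0.52 to -0.46 in clone 17. Of 672 recomputed ranges of single members, 642 moved by less than the spread between clones. No paired analysis was possible because the clones have no groups. Depth limits Psmb8, Psmb9 and Psmb11, with 1 to 127 counts per library.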
